A study of Bombus terrestris with 70 samples.

Results

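This account describes 60 genes of the bumblebee Bombus terrestris whose messenger RNA was higher in egg-removal than in control queens early in life, in both brain and fat body. They were chosen from the 10323 genes present in both tissue tables. Of these, 8108 had a mean of at least 50 in each tissue. For each of these genes a Welch t statistic compared egg removal with control at the early time point, on log2 of the value plus 1. The statistic was above 0 in both tissues for 2695 genes, and the 60 with the largest smaller statistic of the pair form the set. The series as a whole holds 10591 genes. The treatment comparison behind the choice used the early brain and fat body libraries only. The mean of at least 50 was taken over all libraries of a tissue, the later time point included, so late levels entered the choice but the late treatment difference did not. No ovary value was used.

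Colonies were kept under standard conditions. In egg removal (R) the eggs a queen laid were taken away, which was meant to raise her cost of reproduction, and in the control (C) they were taken away and then put back, so that both treatments carried the same disturbance. Queens were taken at 10% deaths in their cohort (TP1) or at 60% deaths (TP2), and each library came from a single tissue of a single queen. The brain had 6 libraries of R TP1, 6 of C TP1, 5 of R TP2 and 5 of C TP2. The fat body had 6 each of R TP1, C TP1 and R TP2 and 4 of C TP2, where replicates 4 and 6 were not analysed here. The ovary had 6 in every group. The labels give no age in days, no genotype and no statement of which tissues share a queen.

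A bumblebee queen founds her colony alone and lays eggs over a single season. The fat body is the insect organ of metabolism and storage and makes the yolk protein that the ovary takes up, while the brain controls behaviour and, through neurosecretory cells and the glands they govern, hormone release. In many animals reproduction and survival trade off against each other.

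Values are estimated read counts normalized by size factors within a tissue, so levels can be compared between libraries of a tissue and not between tissues or between genes. Brain libraries had an estimated depth between 24.1 and 56.0 M reads, ovary libraries between 19.6 and 68.0 M and fat body libraries between 12.1 and 60.2 M. Fat body depth was 35.5 to 58.3 M in R TP1 and 14.1 to 49.5 M in C TP1. In the brain, the gene LOC100644055 took the largest share of the total in 3 of 6 R TP1, 2 of 6 C TP1, 4 of 5 R TP2 and 0 of 5 C TP2 libraries. In the ovary, the C TP2 libraries stood apart from the rest. Their median correlation with the other ovary libraries was 0.536 to 0.893, and every library of the other ovary groups was at 0.923 or above. C TP2 replicates 1 and 4 had the lowest correlations, 0.588 and 0.536, and the lowest ovary depths, 19.6 and 23.7 M. Every other ovary library had at least 43.6 M. The part of depth in the late ovary values was not tested further. No marker gene fixed for brain, fat body or ovary carried its name in the tables used, so the tissue labels were not checked against markers.

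All 60 genes passed the filter on low values in the 3 tissues, and all 60 had a mean of at least 50 in the ovary too. Mean brain values, which are not corrected for gene length, ran from 126 (LOC105665767) to 29199 (LOC100646360). RefSeq names 59 of them only by a locus number, and Mpk is the one with a symbol, so no role is given for any member. The 59 members placed on chromosomes in RefSeq were spread over 17 of them, and 0 pairs were next to each other. The closest were LOC100645573 and LOC100646360, 3 gene steps apart.

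The early treatment difference that chose the set is given as a description, without a test. LOC100643931 had the largest smaller statistic. Its brain values were 162, 239 and 296 (lowest, median and highest) in R TP1 and 85.6, 113 and 126 in C TP1. In the fat body it had 1023, 1592 and 2131 in R TP1, against 382, 490 and 773 in C TP1. Every R library was above every C library in both tissues. LOC100643255, the second gene, had 10094, 15503 and 17415 in R TP1 fat bodies, against 4283, 4794 and 5561 in C TP1. Again the groups were wholly apart.

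Over the 60 genes the early log2 difference was 0.11 to 1.64 in the brain, with a median of 0.30, and 0.36 to 2.04 in the fat body, with a median of 0.85. The brain differences were thus mostly small. LOC105665767 had the widest in the brain, with 84.1, 224 and 386 in R TP1 and 57.7, 71.8 and 81.3 in C TP1. LOC100649129 had the widest in the fat body, with 763, 1436 and 2128 in R TP1 and 155, 436 and 535 in C TP1. In the brain 33 members had every R library above every C library, where 1.07% of all genes did. The fat body had 52 such members, where 10.4% of all genes did. These counts follow from the rule, and nothing is read from them.

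The limit of 60 separated genes that barely differed. The last members were LOC100649224, with a smaller statistic of 3.92, and LOC100647630, with 3.91. The first genes outside were LOC100642375, with 3.89, and LOC100651065, with 3.86. The top members stood at 6.72 (LOC100643931), 6.45 (LOC100643255) and 6.13 (LOC100644910). Membership also depended on how libraries were scaled. With all libraries brought to the same total in place of the deposited size factors, 28 of the 60 kept a statistic above 0 in both tissues and 5 stayed in the top 60. With limma's moderated statistic 37 stayed.

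**Figure D1:**
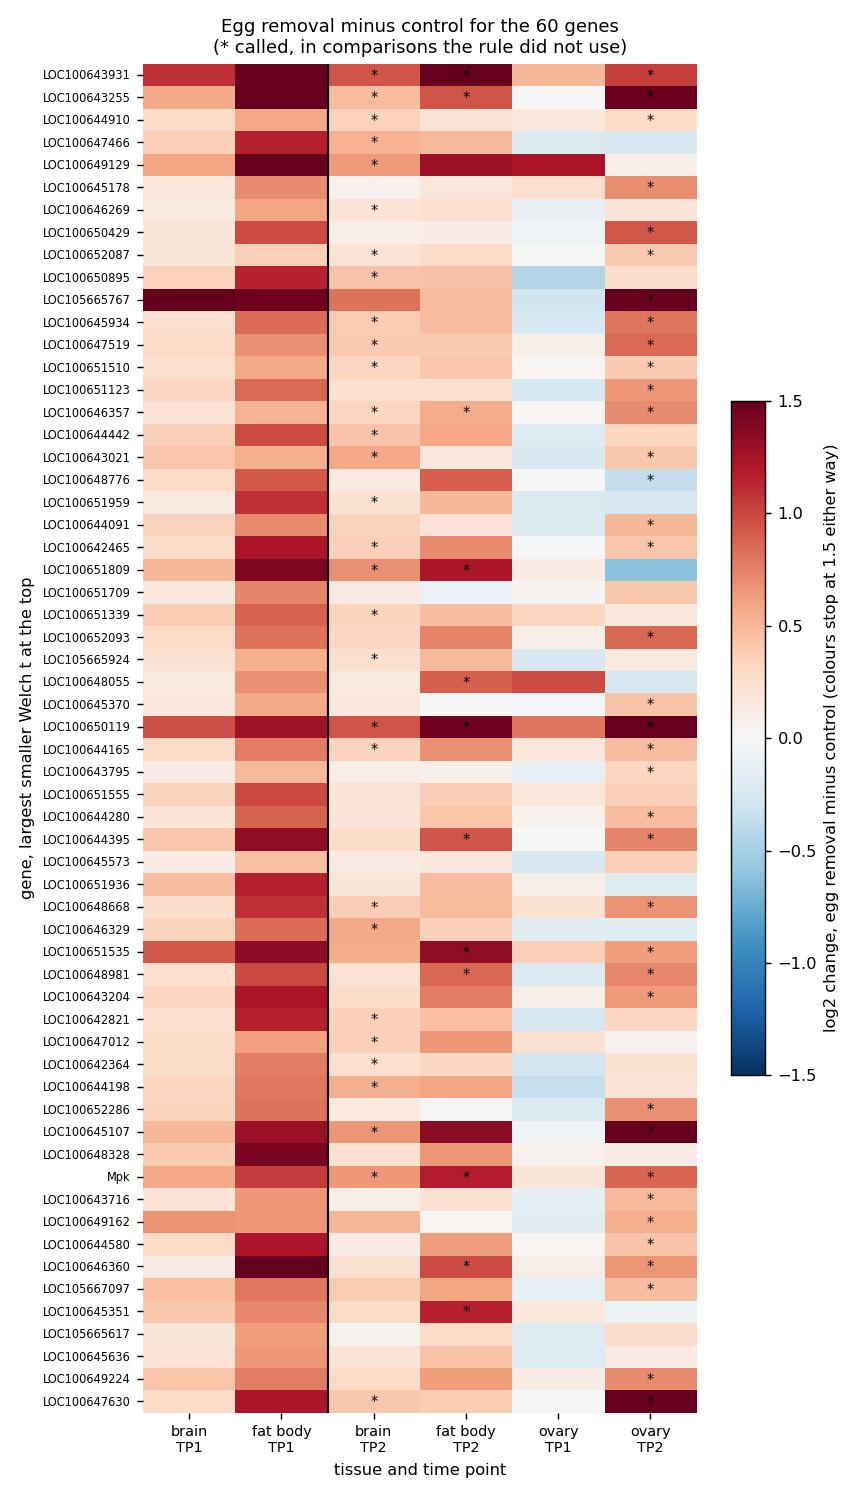
Log2 difference between egg removal and control for each of the 60 genes (rows), by tissue and time point (columns). Genes run from the largest smaller statistic at the top. A star marks a called gene, in comparisons the rule did not use. The brain and fat body TP1 columns are above 0 in every row, as the choice of genes requires. In the ovary TP2 column most rows are above 0.

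Late in life, where the treatment difference was not used in the choice, the brain difference was still in the same direction. All 60 genes had a log2 difference above 0 between R TP2 and C TP2 brains, where 50.4% of all genes did. The median was 0.31 for the 60 and 0.002 for all genes. A gene is called below where its adjusted p, from limma with Benjamini-Hochberg adjustment over all genes of the tissue, was under 0.05. By this measure 30 of the 60 rose, where 3.68% of all genes did, and 0 fell, where 4.89% of all genes did. The median SE was 0.093 for the 60 and 0.128 for all genes, so a typical member could be called at a smaller difference. At TP2 it was also smaller for the 60 in the fat body (0.200 against 0.269) and the ovary (0.158 against 0.253). In 17 members every R TP2 brain was above every C TP2 brain, where 3.0% of all genes did so. Because the 60 genes vary together, these counts are not counts of independent genes. In whole tissue, more cells that express a gene and more RNA per cell cannot be told apart.

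LOC100647466 had the smallest p of the 60 in the late brain. Its values were 4581, 5050, 4457, 4821 and 4729 in R TP2 brains, against 3506, 2736, 4185, 3219 and 2972 in C TP2 brains. Every R TP2 brain was above the highest C TP2 brain, and the log2 difference was 0.52 (SE 0.09, limma adjusted p = 0.00143). LOC100646329 had 2519, 2931, 2776, 3288 and 2634 in R TP2, against 1756, 1627, 2433, 1839 and 1915 in C TP2. Here too the groups were apart, by 0.57 (SE 0.10, limma adjusted p = 0.00157).

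LOC100643931 had the widest late brain difference, with 131, 125, 158, 140 and 165 in R TP2 and 72.4, 61.9, 78.9, 97.6 and 63.0 in C TP2. The groups did not overlap, and the log2 difference was 0.95 (SE 0.17, limma adjusted p = 0.00214). LOC100650119 followed, with 2174, 1658, 2797, 1696 and 2327 in R TP2, against 934, 1161, 1118, 1121 and 1128 in C TP2. Its 5 C TP2 brains lay close together and below all R TP2 brains (log2 0.94, SE 0.18, limma adjusted p = 0.00289). Other leading genes of the early comparison did not pass. LOC100645178 had 2270, 2455, 2249, 2231 and 2285 in R TP2 and 2151, 2064, 2489, 2006 and 2277 in C TP2. The groups overlapped in part (log2 0.07, SE 0.05, limma adjusted p = 0.47). LOC100650429 overlapped as well (log2 0.10, SE 0.05, limma adjusted p = 0.236).

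The remaining called genes in the late brain were LOC100643255, LOC100644910, LOC100649129, LOC100646269, LOC100652087, LOC100650895, LOC100645934, LOC100647519, LOC100651510, LOC100646357, LOC100644442, LOC100643021, LOC100651959, LOC100651809, LOC100642465, LOC100651339, LOC105665924, LOC100644165, LOC100648668, LOC100642821, LOC100647012, LOC100642364, LOC100644198, LOC100645107, Mpk and LOC100647630. Over the 30 called genes the log2 difference was 0.20 to 0.95.

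**Figure D2:**
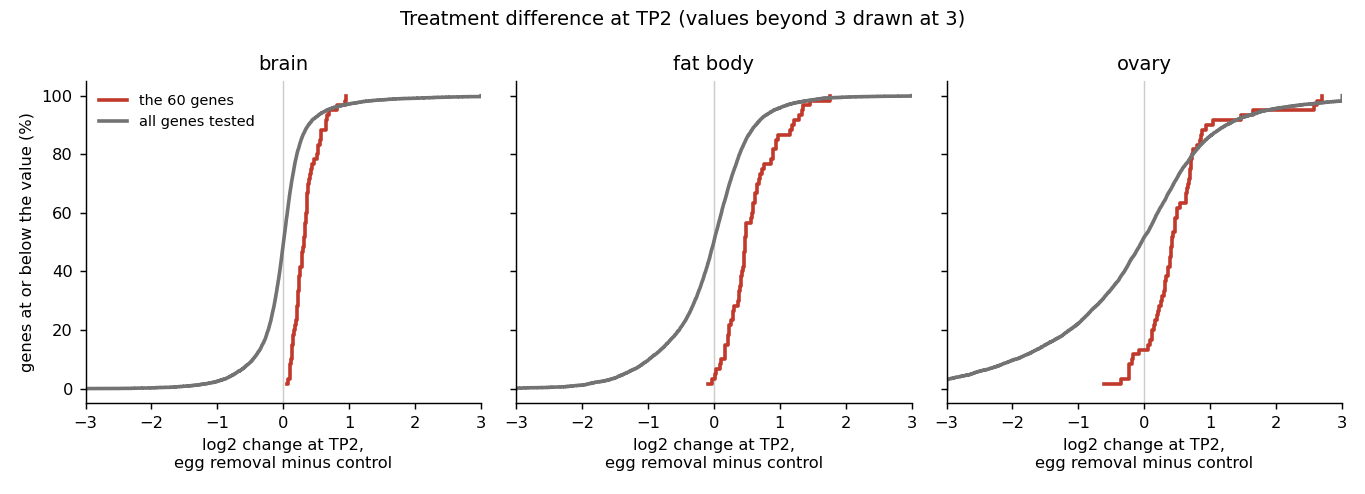
Share of genes at or below each log2 difference between R TP2 and C TP2, for the 60 genes (red) and all genes tested (grey), in brain, fat body and ovary. The red curve lies to the right of the grey one around its middle in each tissue, with medians of 0.31, 0.47 and 0.42 for the 60 genes.

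The late brain result depends on the scaling of libraries. With the same total for every library the median of all genes moved to -0.30 and that of the 60 genes to 0.003, and limma called 0 of the 60 (2 at an unadjusted p under 0.05). Relative to the median of all genes, the 60 stood 0.31 higher under both scalings. Scaling a library moves all its genes by nearly the same log2 amount, so this difference could hardly change. It says nothing about which scaling is right. Library totals of the deposited values were 35.4 to 55.3 M in R TP2 and 35.9 to 37.6 M in C TP2. LOC100644055 took 7.58% to 15.4% of the total in the 4 R TP2 brains where it led, and it led in 0 of the 5 C TP2 brains. It did not lead in 1 R TP2 brain, too few for a comparison among such brains. With LOC100644055 as a covariate, an alternative chosen after seeing the data, 34 of the 60 were called. The spread used by the test included the TP1 libraries that chose the genes, and with only the TP2 libraries in the fit 16 of the 60 were called. Leaving out C TP2 replicate 3, whose members were the highest of that group, gave 47. The mean log2 deviation of the 60 genes was -0.03 to 0.12 in R TP2 brains and -0.42 to -0.02 in C TP2 brains, and C TP2 replicate 3 was the only control library to reach the R TP2 range.

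In the fat body the late difference was in the same direction for most members and varied more between queens. It was above 0 for 58 of the 60 genes, where 49.8% of all genes were, with a median of 0.47 for the 60 and -0.002 for all genes. Limma called 12 of the 60 higher, where 2.31% of all genes were, and 0 lower, where 2.29% were. The log2 difference was -0.08 to 1.75. LOC100651709 and LOC100652286 were the pair below 0. In 6 members every R TP2 fat body was above every C TP2 one, where 1.27% of all genes did so.

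LOC100643931 had 413, 748 and 1140 (lowest, median and highest) in R TP2 fat bodies, against 171, 140, 205 and 517 in C TP2 fat bodies. A single C TP2 library, at 517, reached into the R TP2 range, and the log2 difference was 1.75 (SE 0.31, limma adjusted p = 0.00763). LOC100645351 had 7188, 9821 and 11416 in R TP2, against 2503, 3495, 4216 and 7941 in C TP2. Again 1 C TP2 library overlapped (log2 1.16, SE 0.23, limma adjusted p = 0.012). LOC100651535 had 432, 597 and 1091 in R TP2, against 114, 419, 247 and 340 in C TP2. Its groups were apart (log2 1.33, SE 0.28, limma adjusted p = 0.0166).

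LOC100646360 had 15577, 18405 and 34494 in R TP2 fat bodies and 6396, 12853, 10027 and 14884 in C TP2. All R TP2 values were higher (log2 0.97, SE 0.24, limma adjusted p = 0.0266). LOC100649129 was the gene with the widest early difference. It had 238, 368 and 1146 in R TP2 and 173, 90.7, 198 and 205 in C TP2, with no overlap, but its p did not pass (log2 1.30, SE 0.42, limma adjusted p = 0.0715). The other called genes of the fat body were LOC100643255, LOC100646357, LOC100651809, LOC100650119, Mpk, LOC100648055, LOC100644395 and LOC100648981.

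The fat body calls depended on single libraries. With only the TP2 libraries in the fit limma called 0 of the 60 (26 at an unadjusted p under 0.05) and 0 of all genes. Without C TP2 replicate 1 it also called 0 (23 at an unadjusted p under 0.05). Without C TP2 replicate 2 or replicate 3 it called 6, without R TP2 replicate 3 it called 5 and without R TP2 replicate 2 it called 7. Without C TP2 replicate 5 it called 24, without R TP2 replicate 5 it called 19 and without R TP2 replicate 6 it called 22. With the same total for every library 4 were called, the median of all genes moved to -0.27 and that of the 60 genes to 0.20. Relative to all genes the 60 stood 0.47 higher under both scalings, which scaling could hardly change, as in the brain.

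Depth and the members' level were set side by side in the late fat body. The mean log2 deviation of the 60 genes was 0.24, 0.52 and 0.03 in R TP2 replicates 2, 3 and 4, which had 45.2, 60.2 and 54.1 M reads. It was -0.08, -0.25 and -0.21 in R TP2 replicates 1, 5 and 6, which had 29.7, 21.2 and 27.5 M. In C TP2 it was -0.95, -0.37, -0.56 and -0.24 in replicates 1, 2, 3 and 5, which had 12.1, 49.3, 41.7 and 43.1 M. Within R TP2 the 3 deeper libraries were the higher ones, and in C TP2 the shallowest library, replicate 1, was the lowest. C TP2 replicates 2 and 3 lay below every R TP2 library at a depth above that of R TP2 replicates 1, 5 and 6. With group means removed, the members' mean and log2 depth had a correlation of 0.75 over the 22 fat body libraries of both time points. It was -0.02 over the 22 brain and 0.30 over the 24 ovary libraries. With estimated depth in the fit 19 genes were called. LOC100650436 took the largest share of the total in every R TP2 fat body, 7.06% to 18.9%, and in 1 of 4 C TP2 libraries, at 4.73%. The part of depth or of this transcript in the members' values was not tested further.

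**Figure D3:**
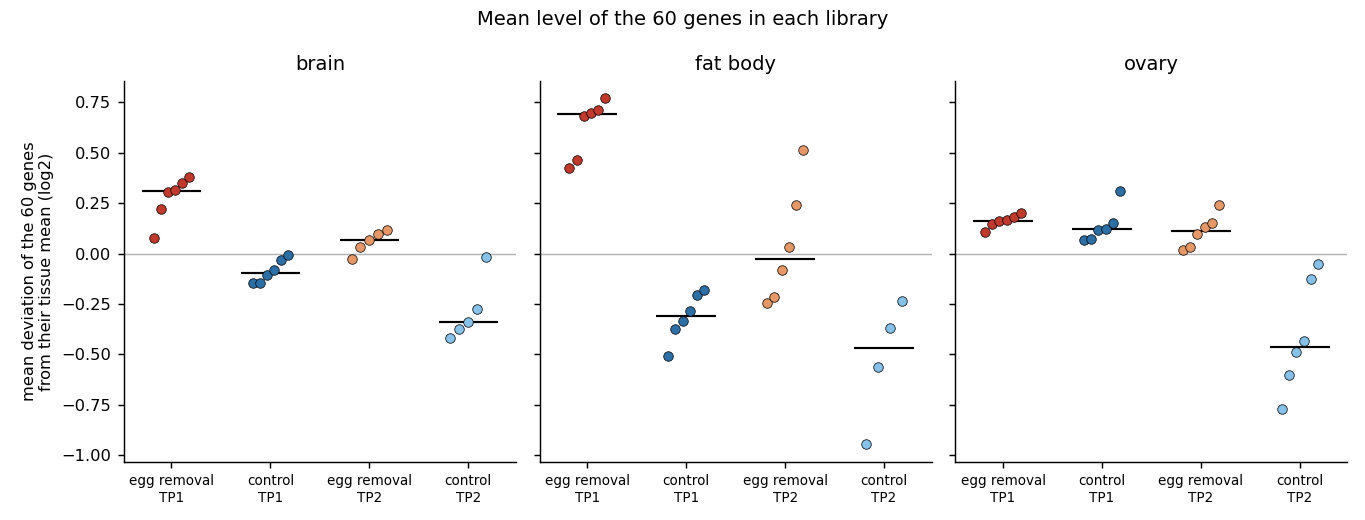
Mean log2 deviation of the 60 genes in each library (points) from their means over the libraries of a tissue, by group, in brain, fat body and ovary. In the ovary the C TP2 libraries span -0.77 to -0.05, and every library of the other ovary groups is above 0.

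Taking both tissues, 58 of the 60 genes were above 0 late in life in brain and fat body together, where 32.0% of all genes and 65.6% of the 2695 genes with a positive early statistic in both were. Called higher in both were 6 genes, where 0.322% of all genes and 1.08% of the 2695 were. They were LOC100643931, LOC100643255, LOC100646357, LOC100651809, LOC100650119 and Mpk. Called in either tissue were 36, where 5.72% of all genes and 13.5% of the 2695 were. Of the rest, 24 were called for brain alone and 6 for fat body alone, and whether the difference itself differed between the tissues was not tested.

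Among these 6, LOC100643255 had 5150, 5892, 6221, 6322 and 6177 in R TP2 brains, against 3447, 4009, 5269, 3940 and 5178 in C TP2 brains. Its lowest R TP2 brain fell within the C TP2 range (log2 0.46, SE 0.11, limma adjusted p = 0.0138). Mpk had 1958, 2137, 2141, 2648 and 2772 in R TP2 brains, against 1118, 1093, 2319, 1657 and 1483 in C TP2 brains. C TP2 replicate 3 was the only control brain inside the R TP2 range (log2 0.65, SE 0.18, limma adjusted p = 0.028). In the fat body Mpk had 549, 853 and 1696 in R TP2, against 191, 648, 337 and 566 in C TP2, with 2 control libraries inside the R TP2 range (log2 1.18, SE 0.28, limma adjusted p = 0.0245).

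**Figure D4:**
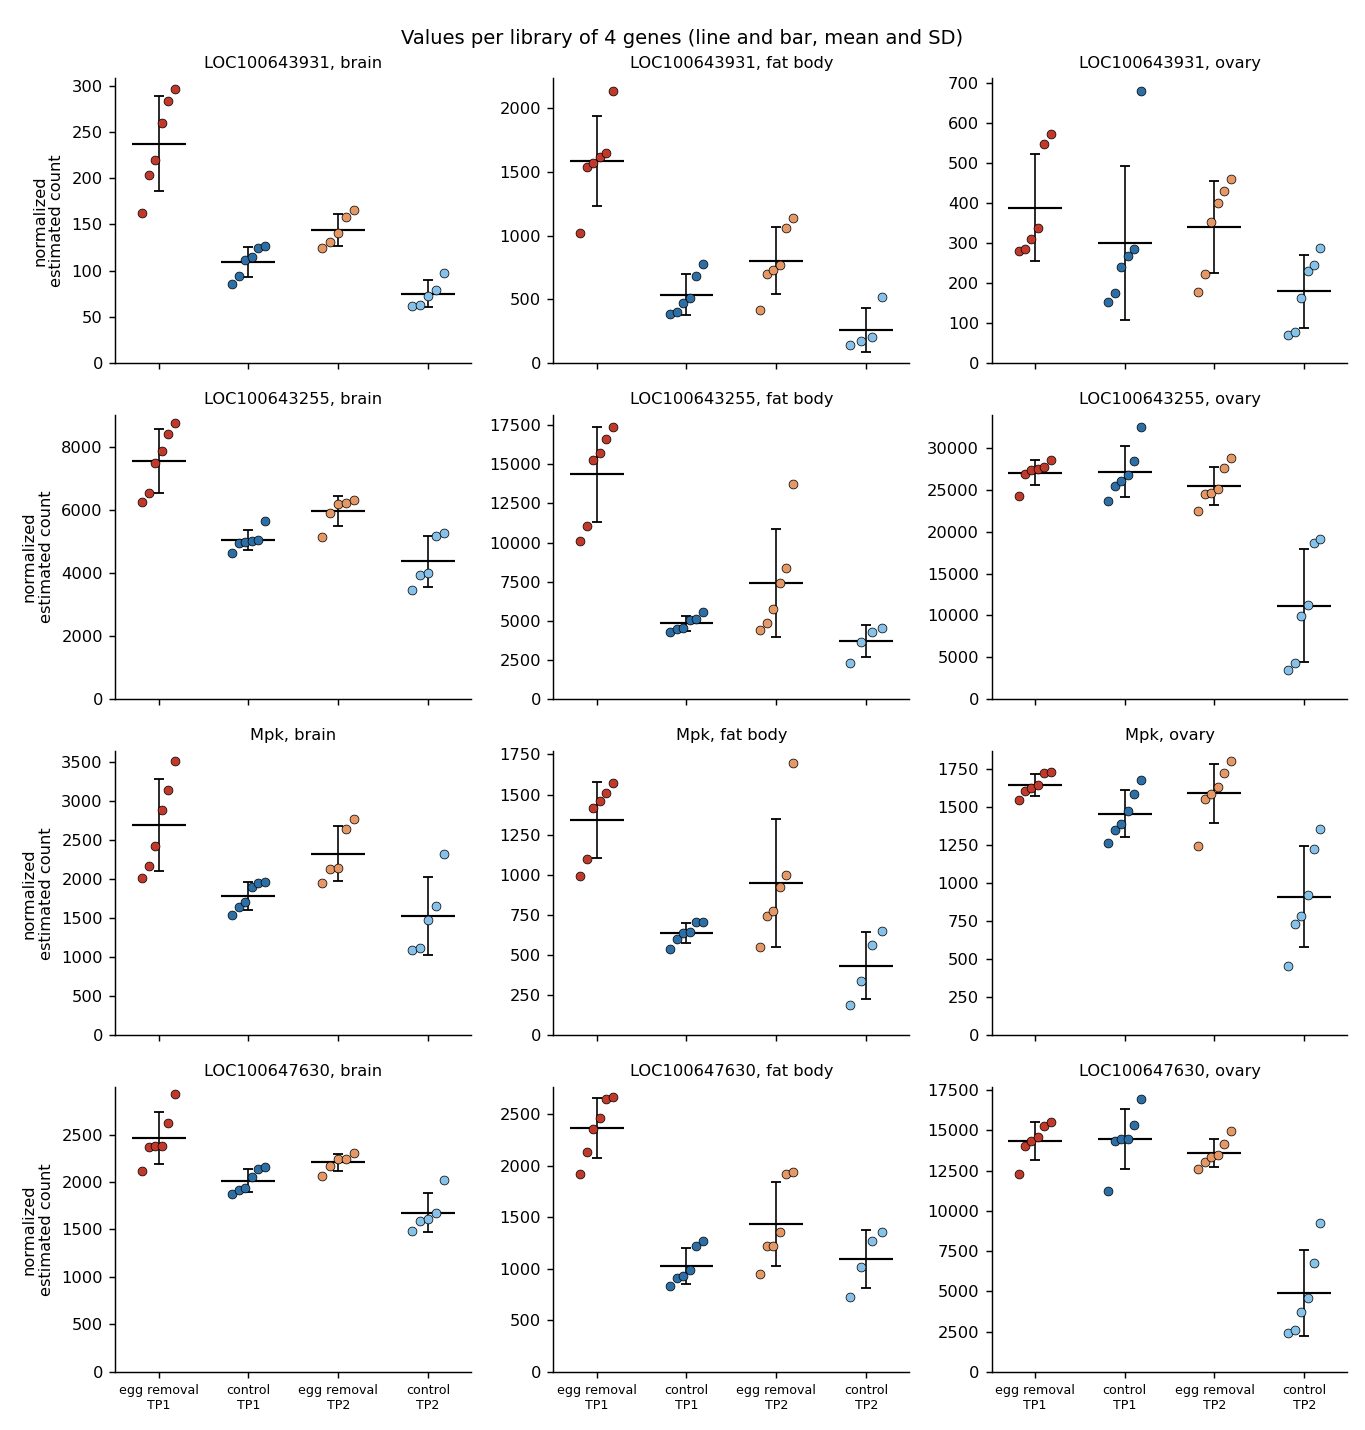
Normalized estimated count of LOC100643931, LOC100643255, Mpk and LOC100647630 in each library of brain, fat body and ovary, by group, with the mean as a line and the SD as a bar. Ovary values of LOC100643255 and LOC100647630 in C TP2 all lie below those of the other 3 groups.

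The ovary played no part in the choice of genes. Early in life limma called 0 of the 60 between R TP1 and C TP1 ovaries, and 0.0% of all genes (5 of the 60 and 1111 of all genes at an unadjusted p under 0.05). The median log2 difference was -0.003 for the 60, with 29 above 0, where 50.6% of all genes were. LOC100643255 had 24209, 27427 and 28526 in R TP1 ovaries and 23606, 26447 and 32506 in C TP1 ovaries. The groups lay over each other. In 4 members every R TP1 ovary was above every C TP1 ovary, where 1.02% of all genes did so. LOC100650119 was one of them, with 7384, 8752 and 10159 in R TP1 and 3157, 5390 and 6935 in C TP1. Its log2 difference of 0.80 did not pass (SE 0.37, limma adjusted p = 0.448). With only the TP1 libraries in the fit 1 member was called, and with a weight per library 5 were.

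Late in life the ovary differed in a broad way, and most of the 60 genes were higher in egg-removal queens. Limma called 36 of the 60 higher, where 28.9% of all genes were, and 1 lower, where 30.0% of all genes were. The median log2 difference was 0.42 for the 60 and -0.04 for all genes, and 52 of the 60 were above 0, where 48.2% of all genes were. The 8 below 0 were LOC100647466, LOC100648776, LOC100651959, LOC100651809, LOC100648055, LOC100651936, LOC100646329 and LOC100645351. In 9 members every R TP2 ovary was above every C TP2 ovary, where 6.92% of all genes did so. With only the TP2 libraries in the fit 21 were called.

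LOC100647630, the last gene inside the limit, had the smallest p. It had 12573, 13402 and 14989 in R TP2 ovaries, against 2430, 4173 and 9265 in C TP2 ovaries. The groups were far apart and C TP2 was the more spread (log2 1.64, SE 0.23, limma adjusted p = 2.57e-05). LOC100650119 had 4295, 6973 and 10576 in R TP2, against 364, 1284 and 3511 in C TP2. Every R TP2 ovary was again higher (log2 2.58, SE 0.37, limma adjusted p = 2.96e-05). LOC100645178, which did not pass in the late brain, had 3111, 3322 and 3650 in R TP2 and 1629, 2028 and 2853 in C TP2. Its ovary groups did not overlap (log2 0.69, SE 0.11, limma adjusted p = 4.71e-05).

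LOC100648776 was the member that fell in R TP2 ovaries. It had 2179, 2329 and 3336 in R TP2 and 2455, 3020 and 5129 in C TP2, and the groups overlapped widely (log2 -0.35, SE 0.14, limma adjusted p = 0.0336). This call was lost in 6 of the fits that left out 1 library, with C TP2 replicate 1 or 4 or with R TP2 replicate 1, 2, 4 or 5 left out (adjusted p up to 0.108), and with only the TP2 libraries in the fit (adjusted p = 0.124). LOC105665767 had the second widest difference of the 60 but uneven controls, with 8836, 11236 and 17412 in R TP2 and 149, 3749 and 25031 in C TP2. The C TP2 ovaries thus held both the lowest and the highest value (log2 2.62, SE 0.82, limma adjusted p = 0.00918). The SD was 9385 in C TP2 and 3299 in R TP2, so this SE, from the shared spread, understates the spread of C TP2. The lowest values, 149 and 191, were in C TP2 replicates 1 and 4, the shallowest ovary libraries.

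Change with time in the ovary was measured within each treatment. Between C TP2 and C TP1 ovaries limma called 40 of the 60 lower, where 30.7% of all genes were, and 3 higher, where 31.1% were. The median was -0.49 for the 60 and 0.02 for all genes. Between R TP2 and R TP1 ovaries limma called 0 of the 60 and 0.0% of all genes (0 of the 60 and 286 of all genes at an unadjusted p under 0.05), with a median of -0.04 for the 60. With only the control libraries in the fit 27 were called.

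LOC100647630 had 2430, 4173 and 9265 in C TP2 ovaries and 11246, 14489 and 16943 in C TP1 ovaries. No C TP2 ovary reached the lowest C TP1 ovary (log2 -1.73, SE 0.23, limma adjusted p = 1.73e-05). In egg-removal queens the same gene had 12573, 13402 and 14989 at TP2 and 12269, 14450 and 15541 at TP1. There the time points overlapped (log2 -0.07, SE 0.23, limma adjusted p = 1.0).

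LOC100652093 had 518, 798 and 1077 in C TP2 ovaries and 1384, 1520 and 1628 in C TP1 ovaries. LOC100652286 had 2433, 3118 and 5181 in C TP2 and 5570, 6047 and 6958 in C TP1. The time points were apart for both genes. Their log2 changes were -0.90 (SE 0.14, limma adjusted p = 3.66e-05) for LOC100652093 and -0.88 (SE 0.14, limma adjusted p = 6.38e-05) for LOC100652286.

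The 3 members that rose with time in control ovaries are described next. LOC100648776 had 2455, 3020 and 5129 in C TP2 and 2034, 2336 and 2577 in C TP1, which overlapped at their edges (log2 0.46, SE 0.14, limma adjusted p = 0.00713). LOC100651936 had 10970, 11548 and 16506 in C TP2 and 7792, 10347 and 10807 in C TP1, with no overlap (log2 0.36, SE 0.12, limma adjusted p = 0.0109). LOC100648055 had 380, 1040 and 2053 in C TP2 and 230, 637 and 1048 in C TP1 (log2 0.92, SE 0.34, limma adjusted p = 0.022). Its groups overlapped, and its call was lost without C TP1 replicate 1 or 6 or C TP2 replicate 4 (adjusted p up to 0.0697).

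The difference between these changes, egg removal minus control, was tested as an interaction. Limma called 25 of the 60, all more positive in egg removal, where 17.5% of all genes were. More negative were 0, where 17.3% of all genes were. The median was 0.47 for the 60 and -0.03 for all genes. LOC100647630 had an interaction of 1.65 on the log2 scale (SE 0.32, limma adjusted p = 0.00884), LOC100652286 of 0.90 (SE 0.20, limma adjusted p = 0.0101) and LOC100652093 of 0.78 (SE 0.19, limma adjusted p = 0.0113). The count fell to 12 without R TP1 replicate 4 and to 14 without R TP2 replicate 4. It fell to 15 without C TP1 replicate 1, C TP2 replicate 1 or 3, R TP1 replicate 1 or 3, or R TP2 replicate 2 or 6, and to 16 without C TP1 replicate 6.

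The late treatment difference, the change with time in control and the interaction all contain the C TP2 ovaries, the libraries that stood apart from all other ovaries, so they are given side by side and not as support for each other. LOC100643255 had 22463, 24859 and 28741 in R TP2 ovaries, against 3466, 10623 and 19167 in C TP2 ovaries. Even the highest C TP2 ovary was below the lowest of every other group. Its late difference was 1.47 (SE 0.30, limma adjusted p = 0.00035), its change with time in control -1.55 (SE 0.30, limma adjusted p = 0.000192) and its interaction 1.47 (SE 0.42, limma adjusted p = 0.0163), all in log2. LOC100645107 had 8557, 10486 and 13269 in R TP2 and 165, 1788 and 19558 in C TP2. It had the widest late difference of the 60 and its C TP2 ovaries reached past the R TP2 range on both sides (log2 2.70, SE 0.63, limma adjusted p = 0.00117). Its SD was 7469 in C TP2 and 1863 in R TP2, which the shared spread of the fit does not reflect.

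The 2 genes with the smallest p in the late brain did not pass in the late ovary. LOC100647466 had 2129, 2381 and 3561 in R TP2 ovaries and 2253, 3064 and 4840 in C TP2 ovaries, with wide overlap (log2 -0.24, SE 0.17, limma adjusted p = 0.221). LOC100646329 had 2340, 2644 and 3533 in R TP2 and 2590, 3124 and 3841 in C TP2 (log2 -0.18, SE 0.13, limma adjusted p = 0.235). Both medians were lower in R TP2 and the groups overlapped. LOC100643931, the third by p, had 178, 375 and 460 in R TP2 ovaries, against 69.9, 196 and 287 in C TP2 ovaries, and rose although the groups overlapped (log2 1.04, SE 0.39, limma adjusted p = 0.0259). Over the 7 tested comparisons 3 members, LOC100651555, LOC100648328 and LOC100645636, were never called.

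**Figure D5:**
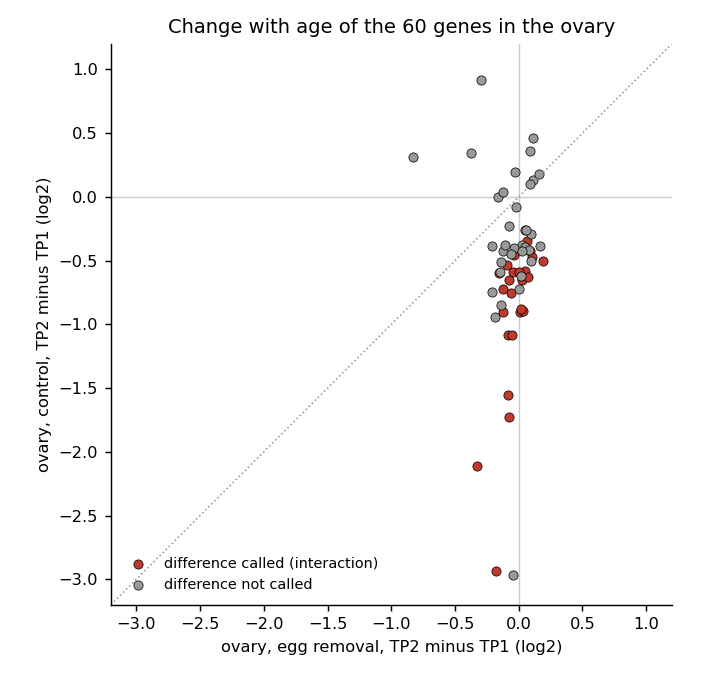
Log2 change from TP1 to TP2 in control ovaries (vertical) against that in egg-removal ovaries (horizontal) for each of the 60 genes, red where the interaction was called. Most points lie below 0 on the vertical axis and near 0 on the horizontal one, with medians of -0.49 and -0.04.

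Changes with time in brain and fat body share the TP1 libraries that chose the genes, and so are described without support from a test. In the brain the median log2 change from TP1 to TP2 was -0.15 in egg removal, with 0 of 60 above 0 (48.8% of all genes), and -0.18 in control, with 5 of 60 above 0 (48.3% of all genes). The fat body medians were -0.54 in egg removal, with 0 of 60 above 0 (53.5% of all genes), and -0.10 in control, with 20 of 60 above 0 (49.3% of all genes). The rule favours high R TP1 and low C TP1 values, which enter these changes, so nothing is read from them.

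Over the 60 genes the log2 change in the fat body was -1.85 to -0.17 in egg removal and -1.20 to 0.36 in control. In the brain it was -1.03 to -0.05 in egg removal and -0.62 to 0.06 in control. A pair of the leading genes is given as examples, which do not span these ranges. LOC100643255 had fat body values of 4398, 6607 and 13735 in R TP2 and 10094, 15503 and 17415 in R TP1, while its controls had 2287, 4323, 3628 and 4567 in C TP2 and 4283, 4794 and 5561 in C TP1. Only the highest R TP2 fat body reached the R TP1 range. In the brain LOC100643931 had 131, 125, 158, 140 and 165 in R TP2 and 162, 239 and 296 in R TP1, against 72.4, 61.9, 78.9, 97.6 and 63.0 in C TP2 and 85.6, 113 and 126 in C TP1. Both treatments were lower at TP2 in most libraries.

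The members varied together between queens of the same group, as a description with no test. With group means removed, the median correlation of a pair of members was 0.42 over the 22 brain libraries, 0.44 over the 22 fat body libraries and 0.23 over the 24 ovary libraries. For all genes with enough signal the median was near 0 in each tissue (-0.001, -0.002 and -0.005). The brain and fat body libraries include the TP1 libraries that chose the genes, so their correlations are tied to that choice. The genes share libraries, and in the fat body also the depth described above. Over all 24 ovary libraries with group means kept, 10 of the 60 ran against the mean of the others. LOC100648776 (-0.60) and LOC100651936 (-0.59) were the lowest. These values include the differences between groups, so they do not describe queens of the same group.

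Of the genes in the hormone, immune, insulin, sex determination, folding and translation lists, only 3 could be found by symbol, and none of them is a member. Kr-h1, a transcription factor of the juvenile hormone response, had 1088, 758, 981, 1017 and 1107 in R TP2 brains, against 395, 638, 575, 1000 and 742 in C TP2 brains. A single C TP2 brain, at 1000, lay inside the R TP2 range, and the gene rose (log2 0.62, SE 0.18, limma adjusted p = 0.0403). The scaling of libraries, described above for the late brain, bears on this value too. In the fat body Kr-h1 had 787, 1141 and 1457 in R TP2 and 478, 778 and 1181 in C TP2. Its ovary values were 1464, 3061 and 3765 in R TP2 and 1492, 2371 and 3805 in C TP2. The groups overlapped in both tissues. In the ovary Def, an antimicrobial peptide gene, fell in R TP2 against C TP2 (log2 -4.31, SE 1.19, limma adjusted p = 0.00419), as did fem, a sex determination gene (log2 -0.92, SE 0.24, limma adjusted p = 0.00296). Of all genes, 30.0% were called lower in this comparison, which contains the C TP2 ovaries that stood apart. Def had 74.2 to 2453 in R TP2 and 1179 to 68787 in C TP2. The ranges of fem were 1017 to 2093 and 1466 to 5008, so both genes overlapped. In the late brain and fat body the groups of both genes overlapped as well. Medians of fem there were 2423 (R) and 2607 (C) in the brain, 1910 (R) and 1739 (C) in the fat body.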

How the data were processed

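Messenger RNA libraries were stranded, with each sequenced on 2 lanes, per the labels. The deposited values are signal: decimal, normalized estimated counts, for which the submitters' processing notes name kallisto 0.46.1, R 4.0.1 and DESeq2 1.28.1. The median ratio to each gene's geometric mean was equal in all columns of a tissue, and whole reads could not be recovered, so no count model and no counting interval was used. Columns were found for 68 of 70 labelled samples, and 0 columns were left unused. No source used here names the index, annotation, build, strand setting or gene filter, so reads shared by near-identical genes are an uncertainty for every gene. Depth was estimated as a library's total over the value of its lowest cluster of positive values, which is approximate.

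Genes with a mean of at least 1 in at least 1 group were kept (10388 in brain, 10383 in fat body, 10401 in ovary). On log2 of the value plus 1, limma 3.58.1 (trend and robust options, R 4.3.3, statmod 1.5.0) fitted 4 group means per tissue, with Benjamini-Hochberg adjustment per comparison. The fit was tested on simulated data. Alternatives were an offset of 5, other filters, equal totals, only the compared groups, library weights, a replicate block, depth as a covariate, and each library left out.

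The members, lists and tests were chosen with earlier results of these data known. Named genes were the 12 with the largest smaller statistic, the last 2 inside and first 2 outside the limit, up to 3 called per direction in each of 7 tested comparisons, and any with a symbol. LOC100646357, LOC100651809, LOC100646360 and LOC100645107 were named after their values were seen, as were genes given only for a place in a range or count. Same-numbered replicates were not shown to be pairs. RefSeq symbols (assembly iyBomTerr1.2) matched all 60 members and 93.0% of all genes. No sequences or product names were used.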

Additional observations from a re-analysis of the deposited data

Results flagged for a closer look

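Of 60 groups of 4 to 6 libraries examined for a library far from the others, 4 were flagged, and chance flags about 1 in 20. The mean log2 deviation of the 60 genes in ovary C TP1 replicate 1 was 0.31, above the other libraries of that group. LOC100643255 was 24209 in ovary R TP1 replicate 4, below the other 5. LOC100644910 was 5380 in brain C TP2 replicate 3, above the other 4, and 899 in fat body C TP2 replicate 1, below the other 3.

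In the ovary, limma called the interaction for 25 of the 60 genes, other named genes among them. The 3 with the smallest p are given here. The differences, egg removal minus control on the log2 scale, were 1.65 for LOC100647630 (adjusted p = 0.00884), 0.90 for LOC100652286 (adjusted p = 0.0101) and 0.78 for LOC100652093 (adjusted p = 0.0113). All 3 rest on the C TP2 ovaries, which stood apart from the other ovary libraries, and their part in these values was not tested.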

How the results depend on the processing

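An offset of 5, no filter and a stricter filter on low values kept every count of called members within 1.5 times. Equal totals gave 0 in the late brain and 4 in the late fat body. With only the compared groups in the fit the counts were 16 (late brain), 0 (late fat body), 1 (early ovary), 21 (late ovary) and 27 (ovary, time in control). Library weights gave 48, 26 and 5 in the late brain, late fat body and early ovary, 1 for time in egg-removal ovaries and 40 for the interaction. Depth as a covariate, chosen after seeing the data, gave 19 in the late fat body and 15 for the interaction, and LOC100644055 as a covariate, also chosen then, gave 34 in the late brain. The cause of these moves was not tested. Leaving out 1 library at a time gave 22 to 47 (late brain), 0 to 24 (late fat body), 0 to 0 (early ovary), 30 to 42 (late ovary), 38 to 46 (time in control), 0 to 0 (time in egg removal) and 12 to 37 (interaction). Of 19 named results, 9 lost their call in some other setting, and 0 changed sign.

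In each comparison some same-numbered pair had a correlation of deviations of 0.1 or less, so the numbers were not taken to pair the samples. The correlations were -0.22 to 0.32 in the late brain. They were highest in the early ovary, at -0.02 to 0.72, with 4 of 6 pairs over 0.1 and a mean of 0.238 for same numbers and -0.041 for other numbers. A replicate block gave 34 in the late brain, 7 in the late fat body, 0 in the early ovary, 35 in the late ovary, 44 for time in control, 0 for time in egg removal and 25 for the interaction. It also ended the call of LOC100648776 in the late ovary (limma adjusted p = 0.053), and no other named call.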
